A study of Arabidopsis thaliana with 12 samples.

Results

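On this Arabidopsis array, 136 of 870 probes that name several genes differed at least 2-fold between plants in light and plants in the dark. The 116 of them that also met a condition on mean level are described here. Of the 116, 80 were higher in light and 36 were lower. Each of these 870 probes carries 2 or more gene names in the platform annotation, so its signal is that of a group of candidate genes, and no candidate is taken here as the one measured. Probes that carry the same names did not read alike on this array, as shown at the end, so whether the names fit the probes is itself unsure, and a gene name below says only what the annotation gives. The 116 probes were chosen by 4 conditions on the normalized values. The annotation names several genes, the mean log2 intensity lies above the 25th percentile of all 3439 probes, the light and dark means differ by at least 1 on the log2 scale, and the difference has one sign in replicate numbers 1 and 2, 3 and 4, and 5 and 6. Because the light and dark values chose these probes, their differences are given as a description with no test.

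The series holds 12 samples of total RNA from wild-type plants of the ecotype Landsberg, with no transgene or mutation in the labels. In the dark group, 6 samples came from plants adapted to the dark for 12 h. In the light group, 6 samples came from plants that had the same 12 h of darkness and then 30 min of light. The question is which transcripts differ after this short exposure. The series has no dark sample of the later time, so an effect of light and one of the 30 min that passed cannot be told apart. The labels name no tissue, age or number of plants, and nothing in them says that the 6 samples of a group are separate plants, so the spread between samples may be partly technical. In bulk RNA, fewer cells of a type and less RNA per cell cannot be told apart.

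Light signals reach the plant nucleus through photoreceptors and through signals from the chloroplast, and they soon change transcript levels of many nuclear genes, among them genes for photosynthesis and for metabolism in plastids. Plant genomes are rich in duplicated genes, and the proteins of 1 family often share long stretches of sequence. A cDNA or gene fragment spotted on an array can bind the transcripts of several such relatives. A probe of this kind reports the sum over its relatives, and members that move in opposite directions partly cancel in it.

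Total deposited intensity was 3247 to 3321 per dark sample and 3532 to 3666 per light sample, with no measure of background. Column medians lay between 0.443 and 0.491 for dark samples and between 0.666 and 0.687 for light samples, and 108 to 153 probes per sample were listed at 0. Intensities below are quantile-normalized values on the linear scale, in which every sample has nearly the same distribution. Low values were raised to a floor set for each sample, which ran from 0.129 to 0.153. A probe at the floor in all 12 samples therefore reads 0.12 higher in light on the log2 scale. The median over all probes of the mean level was 0.563 on that scale.

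The rule took 9.2% of the several-gene probes as higher in light and 4.14% as lower. The same level, size and sign conditions took 8.52% of all probes as higher and 6.43% as lower. Among probes that name 1 gene the shares were 8.24% and 4.77%, and among probes without a name 8.31% and 8.1%. The several-gene probes thus held a share of rises near that of the array and a lower share of falls. The same held for the probes that name 1 gene, and no test was made of these shares. The split depends on how arrays are scaled to each other. With values as deposited it was 160 higher and 13 lower, with each array centred on its median 59 and 59, and with cyclic loess 83 and 35. All 116 probes kept their sign under these 3 scalings, under which the median difference of all probes was 0.44, -0.10 and 0.04 on the log2 scale. Nothing is read from the kept signs, because the rule asked for a difference of at least 1, which leaves little room for a change. Under all 4 scalings 72 of the 116 stayed at least 2-fold apart, 59 of the higher and 13 of the lower probes. The fold of 8 of the 116, all bright, moved by over 1.5 times under another scaling. With arrays centred on their medians 3 of these fell below 2-fold, probes 1033 at 0.75, 1803 at 0.39 and 2283 (AT1G70160, AT5G54870, AT4G27020, picked after its values were seen) at 0.79. The other 5, probes 2026 (AT5G66000, AT4G35510, AT2G17540), 2426, 3553, 3179 and 3203, read 1.08, 3.40, 1.83, -2.25 and -2.52 there and stayed beyond 2-fold under all 4 scalings.

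Among the higher probes the differences ran from 1.01 to 3.99 on the log2 scale with a median of 1.38, or 2.61-fold. Among the lower ones they ran from -2.49 to -1.0004 with a median of -1.20, or 2.30-fold lower. A 4-fold difference was reached by 8 higher and 3 lower probes. The median difference of the other 754 several-gene probes was 0.01. The levels of the chosen probes were moderate, with median intensities of 0.893 for higher and 0.811 for lower probes, against 0.518 for the other several-gene probes, which had no level condition to meet.

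The 2 highest probes differed by the same amount, 15.8-fold. Probe 2426, with candidates AT1G01910, AT5G60730 and AT3G10350, read 0.988, 1.40 and 1.64 in the dark (lowest, median and highest of 6) and 12.5, 22.9 and 26.8 in light. Its log2 difference was 3.99 ± 0.19 (SE from limma, n = 6 per group, as for all SEs). Probe 781, with candidates AT5G47610 and AT4G17245, read 0.415, 0.514 and 2.33 in the dark and 10.6, 12.9 and 14.6 in light, a difference of 3.99 ± 0.44. In both, every light sample lay above every dark sample. The dark samples of probe 781 were not alike: samples 3 and 4 read 2.18 and 2.33 and the other 4 at most 0.551, so its difference was 2.64 in numbers 3 and 4 and 4.52 and 4.80 in the other pairs. The gene table gives no descriptive name for these 5 candidates.

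Probe 1336 (AT5G27440, AT5G24790) read 0.184, 0.460 and 0.516 in the dark and 1.92, 2.89 and 3.94 in light, a difference of 2.85 ± 0.26. Probe 3553 (AT1G06890, AT2G30460) was brighter and closer among samples, at 1.63, 1.97 and 2.27 in the dark and 10.03, 10.5 and 13.0 in light, a difference of 2.50 ± 0.10. For both the groups were apart. Next came probes 1655 (AT1G80620, AT1G15810), 1928 (AT3G61320, AT2G45870) and 3328 (AT5G13810, AT3G57070, AT2G41330), at 2.45, 2.42 and 2.30, again with no overlap between groups. The remaining ones among the 12 largest rises were probe 4444 for PHOS32 and PHOS34 at 2.12, probe 2 (AT5G24620, AT4G36010, AT2G17860) at 2.0, probe 4324 for PRA1.B1 and PRA1.B2 at 1.93, probe 411 (AT5G19500, AT2G33260) at 1.89 and probe 1979 (AT1G32760, AT4G10630) at 1.83. In probe 1979 the groups overlapped, with dark values up to 0.544 and a lowest light value of 0.477.

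The 12 largest falls were tighter than the rises. Probe 3431 (AT4G25370, AT4G12060) read 1.56, 1.98 and 2.30 in the dark and 0.306, 0.340 and 0.389 in light, a difference of -2.49 ± 0.10, or 5.63-fold lower. Probe 3779 (AT1G62350, AT3G46870) read 2.85, 3.31 and 3.64 in the dark and 0.538, 0.584 and 0.664 in light, a difference of -2.45 ± 0.08. Probe 3485, whose candidates AT1G21680 and AT1G21670 are neighbours on a chromosome, read 5.21, 5.99 and 6.82 in the dark and 1.05, 1.20 and 1.44 in light, a difference of -2.29 ± 0.10. In these 3 probes the light samples lay far below the dark ones, and the 3 pairs of replicate numbers gave like values, -2.33 to -2.58 in probe 3431.

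Probe 3203 (AT4G31510, AT2G24550) was the brightest of the 12, at 8.40, 10.3 and 11.6 in the dark and 2.33, 2.80 and 3.02 in light. Its difference was -1.90 in each of the 3 pairs. The others were probe 4075 for TROL and AT3G25480 at -1.95, probe 4359 (AT1G45207, AT4G36970) at -1.94, probe 838 (AT1G74870, AT5G62910, AT3G48070) at -1.76, probe 3196 (AT1G24240, AT5G11750, AT4G11630) and probe 3179 (AT4G20840, AT4G20830) both at -1.65, probe 4531 (AT1G29540, AT2G34330) at -1.63, probe 3160 for 3 GH9B genes at -1.47 and probe 3950 (AT2G45406, AT2G44030) at -1.44. In none of the 12 did the groups overlap.

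Most candidates carry a locus number and no name. For 16 probes the gene table names at least 1 candidate, and what these genes are known to do is given below, with the names as the annotation has them and not checked against any sequence. These 16 were picked by that name alone, after the values had been seen. Of these, 8 were higher in light and 8 lower.

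Several of them name proteins of the chloroplast. Probe 4075 names TROL (AT4G01050), a rhodanese-like thylakoid protein that tethers the ferredoxin reductase at the membrane, together with AT3G25480. It read 4.56, 5.21 and 5.41 in the dark and 1.20, 1.29 and 1.49 in light, a difference of -1.95 ± 0.08. Probe 4039 names AT4G01150 and AT4G38100, listed as CURT1A and CURT1D, which bend the thylakoid membrane at the margins of grana. It read 2.22, 2.52 and 3.25 in the dark and 1.10, 1.25 and 1.31 in light, a difference of -1.07 ± 0.10. Both of these probes were lower in every light sample than in any dark sample, the one annotated to TROL and AT3G25480 by 3.85-fold and the one annotated to CURT1 genes by 2.10-fold. The CURT1 probe was below 2-fold as deposited, at -0.90, and with cyclic loess, at -0.91.

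Probe 665 names RCA (AT2G39730), the activase that frees Rubisco of bound sugar phosphates so that it can fix carbon, and AT1G73110. It read 0.746, 0.892 and 1.22 in the dark and 1.96, 3.17 and 3.40 in light, a difference of 1.58 ± 0.17. Probe 2519 names CaS (AT5G23060), a calcium sensing protein of the thylakoid with a role in stomatal closure, and AT3G59780. It was dim, at 0.180, 0.306 and 0.401 in the dark and 0.394, 0.680 and 0.812 in light, a difference of 1.11 ± 0.23. For the RCA probe all light values were above all dark values, whereas for the CaS probe the lowest light value fell just below the highest dark value.

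Probe 1541 names FATB (AT1G08510) and FaTA (AT3G25110), thioesterases that release fatty acids from acyl carrier protein and so end their synthesis, with AT4G13050. It read 0.879, 0.940 and 1.24 in the dark and 0.379, 0.442 and 0.520 in light, a difference of -1.17 ± 0.11. Probe 1761 names OTC (AT1G75330), which makes citrulline on the way to arginine, and PYRB (AT3G20330), the aspartate carbamoyltransferase of pyrimidine synthesis. Both enzymes take carbamoyl phosphate as substrate. That probe read 0.539, 0.642 and 0.810 in the dark and 0.233, 0.282 and 0.407 in light, a difference of -1.15 ± 0.17. In both probes the groups were apart, and as deposited, without scaling, the differences were -0.74 and -0.64.

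Probe 304 names GLX2-4 (AT1G06130) and GLX2-5 (AT2G31350), members of the glyoxalase 2 family, which is known for the last step in removing methylglyoxal. It read 0.396, 0.520 and 0.711 in the dark and 0.218, 0.258 and 0.301 in light, a difference of -1.07 ± 0.14. As deposited, without scaling, its difference was -0.55. Probe 2145 has 5 candidates, the most of any in the set, and among them only OPCL1 (AT1G20510) is named, a ligase that activates a precursor of jasmonate in peroxisomes. The others are AT1G20480, AT5G63380, AT4G19010 and AT4G05160. Its values were 0.971, 1.57 and 2.64 in the dark and 3.64, 4.94 and 6.97 in light, a difference of 1.65 ± 0.26 with no overlap.

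Probe 3160 names GH9B16 (AT4G38990), GH9B17 (AT4G39000) and GH9B18 (AT4G39010), glycosyl hydrolases of the family that holds the plant endoglucanases, which cut cellulose-like chains in cell walls. The 3 genes lie side by side. The probe read 0.899, 0.988 and 1.13 in the dark and 0.281, 0.356 and 0.415 in light, a difference of -1.47 ± 0.10, and its groups were well apart.

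Probe 3127 names AT5G10980 and AT4G40030, both listed as histone 3.3, the histone variant placed on active chromatin outside replication. It read 1.01, 1.14 and 1.32 in the dark and 0.375, 0.468 and 0.754 in light, a difference of -1.20 ± 0.16. Probe 3897 names ALC (AT5G67110, ALCATRAZ) and SPT (AT4G36930, SPATULA), related helix-loop-helix factors known from fruit opening and carpel growth. SPT also takes part in the control of seed germination by light and cold. Its values were 0.773, 0.946 and 1.07 in the dark and 0.383, 0.474 and 0.526 in light, a difference of -1.02 ± 0.11. Neither of these probes had groups that overlapped. As deposited, without scaling, the differences of probes 3127 and 3897 were -0.81 and -0.55.

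Probe 3981 names AT4G38900 and AT2G21230, listed as the leucine zipper factors bZIP29 and bZIP30, with AT2G24340. It read 0.567, 0.712 and 0.825 in the dark and 1.32, 1.78 and 1.93 in light, a difference of 1.29 ± 0.12. Probe 3324 names UNG (AT3G18630), the glycosylase that removes uracil from DNA, and AT2G10550, and differed by 1.15 ± 0.16 at low intensities, from a dark median of 0.335 to a light median of 0.655. For both probes all light samples were above all dark samples.

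The remaining 3 probes each name a pair of related genes and were higher in light. Probe 1033 names UBC19 (AT3G20060) and UBC20 (AT1G50490), ubiquitin-conjugating enzymes of the cell cycle class. It read 1.68, 2.22 and 2.76 in the dark and 4.22, 5.71 and 6.82 in light, a difference of 1.33 ± 0.15. Probe 4324 names PRA1.B1 (AT3G56110) and PRA1.B2 (AT2G40380), prenylated Rab acceptors of vesicle transport. It read 0.492, 0.714 and 0.80 in the dark and 2.26, 2.49 and 2.94 in light, a difference of 1.93 ± 0.13. Probe 4444 names PHOS32 (AT5G54430) and PHOS34 (AT4G27320), phosphoproteins with a universal stress protein domain, and read 0.831, 1.11 and 1.43 in the dark and 4.53, 4.74 and 4.81 in light, a difference of 2.12 ± 0.13. None of these 3 had overlapping groups.

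Few pathways could be read as groups. Of 11 lists of photosynthesis, plastid and light-response genes, the several-gene probes touched 5, with 9 probes in all, and 1 of these 9 was in the set, the RCA probe 665, against 13.3% of all several-gene probes. The other probe for RCA and AT1G73110, 1872, differed by -0.86. The antenna probe for LHCB4.1, LHCB4.2 and LHCB4.3, proteins that link the light-harvesting complex to photosystem II, differed by -0.13. The probe for ATPC1 and ATPC2, gamma subunits of the chloroplast ATP synthase, differed by -0.80. In tetrapyrrole synthesis the HEME1 and HEME2 probe differed by -0.35 and the HEMB1 and hemb2 probe by -0.16. In thiol redox and peroxide removal, both probes for the ascorbate peroxidases TAPX and SAPX differed by -0.03 and 0.39, and the thioredoxin probe for TY1, THX and ty2 by -0.32. Photosystem I and II, chaperones, import, sigma factors and light-response genes had no several-gene probe. No probe of the set had a candidate matching any of 15 word lists.

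The 116 probes name 268 different genes, 187 on the higher and 81 on the lower side, and no gene appears in 2 of them. The annotation gave 2 candidates for 85 probes, 3 for 27, 4 for 3 and 5 for 1. This was close to the other several-gene probes, of which 74.7% had 2 candidates against 73.3% in the set. Candidates that are neighbours in gene order were found in 10 of the 116, or 8.62%, against 12.5% of the other several-gene probes. Candidates on 1 chromosome only were found in 23, or 19.8%, against 29.4%. A candidate with a name was present in 13.8% against 19.8%. These shares carry no test. Most of the set names genes on different chromosomes.

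The spread among samples was not the same for rises and falls. The median SD of a higher probe was 0.41 in the dark and 0.22 in light on the log2 scale, and that of a lower probe 0.20 and 0.17. Other several-gene probes had median SDs of 0.30 and 0.17. The differences of the 3 pairs of replicate numbers lay within a median range of 0.76 for higher and 0.35 for lower probes, against 0.49 for other several-gene probes. A range over 1 was found in 20 higher probes and in no lower probe. In every pair a 2-fold difference was reached by 43 of the 80 higher and 20 of the 36 lower probes. Dark values at the floor set for low intensities occurred in 5 higher probes, and no lower probe had a value there.

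No overlap between the 6 dark and 6 light values was found in 66 of the 80 higher and 35 of the 36 lower probes. Over all probes such separation was found in 18.9% as higher and 19.7% as lower. limma, with an adjusted p under 0.05 over all 3439 probes, called 76 of the higher and 35 of the lower ones, against 23.6% of all probes called higher and 29% called lower. Nothing is read from these counts, because the same contrast chose the probes. The 5 probes that limma did not call were 221 (AT5G40700, AT3G27350), 214 (AT4G17440, AT3G60410), 3065 (AT4G00270, AT2G25650) and 2746 (AT1G66430, AT5G51830) among the higher ones and 254 (AT5G22700, AT5G22660) among the lower ones.

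In probe 2746 a single sample carried much of the difference. Its dark values lay between 0.455 and 0.699 and those of 5 light samples between 0.941 and 1.17, but light sample 4 read 13.0. Its difference of 1.43 was 0.83 without that sample, which is below 2-fold. Of the 116 probes this was the only one whose fold moved by over 1.5 times when 1 sample was left out. With each of the 12 samples left out in turn, 60 higher and 26 lower probes stayed at least 2-fold apart in all 12 cases. All 116 kept their sign, for which the condition of a 2-fold difference left little other outcome.

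The brightest probe of the set was 1803 (AT5G51520, AT4G25250), with a mean intensity of 43.0 where no other exceeded 6.48. It read 10.6, 24.0 and 67.0 in the dark and 52.2, 73.4 and 84.7 in light, and its pairs differed by 1.12, 0.34 and 2.58. Its difference of 1.35 was 0.93 as deposited and 0.39 with arrays centred on their medians, below 2-fold in both. Its dark samples followed their numbers, with 24.0 in samples 1 and 2, 67.0 in samples 3 and 4 and 10.6 and 14.1 in samples 5 and 6. Few probes are this bright, and quantile normalization gives such probes the same few values in many samples.

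The threshold of 1 cut through a continuous range. Just inside it on the higher side lay probes 221 at 1.01 and 4151 (AT5G61950, AT5G61940, AT5G51530) at 1.02, and on the lower side probes 2223 (AT5G13970, AT5G13310) and 1820 (AT1G36990, AT4G08510), at -1.0004 and -1.002. Just outside lay probes 474 (AT5G48370, AT2G30720) at 0.998, 2747 (AT1G50040, AT3G19680) at 0.992, 456 (AT4G14620, AT3G22970, AT2G38820) at -0.996 and 3495 (AT1G78910, AT3G19440) at -0.994. In all, 136 several-gene probes reached a 2-fold difference. The 20 that were left out all lay below the level condition, a mean intensity of 0.361, and none was left out for its sign.

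The array offers a measure that the rule did not use, because some candidate genes are also named by other probes. Of the 116 probes, 49 shared at least 1 candidate with another probe, 54 other probes in all, and none of the 54 was in the set. The rule barred many of the 54 in advance, since 12 name 1 gene and 19 lay below the level condition, 5 of them both. Among several-gene probes above that level, 18.3% were in the set. limma called 26 of the 54, or 48.1%, against 52.5% of all probes in either direction. The called ones were 11 in the direction of the probe with which they share a candidate and 15 in the opposite direction. By kind of link, the 17 probes with exactly the same candidates gave 2 calls in the same and 3 in the opposite direction, the 12 that name 1 gene gave 4 and 4, and the 25 that share part of their candidates gave 5 and 8. Of the 54 probes, 19 lay below the level condition, and 4 had all 6 light values at the floor.

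Calls that held in 20 alternative settings (other scalings, floors, blocks and left-out samples) were found for 6 of these probes, 2 in the same and 4 in the opposite direction. The largest contrast concerned AT1G35510. Probe 3249, which names it with AT1G14970 and AT2G01480, read 1.40, 1.48 and 1.84 in the dark and 0.629, 0.671 and 0.705 in light, a difference of -1.21. Probe 473, which names AT1G35510 alone, read 1.29, 2.17 and 2.67 in the dark and 14.1, 15.8 and 17.9 in light, a rise of 3.01 ± 0.17 (limma adjusted p = 1.90e-08). In both probes the groups were apart, in opposite directions, although they name 1 gene in common.

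AT5G13810 gave a second case. Probe 3328, with AT3G57070 and AT2G41330 as its other candidates, was 2.30 higher in light, while probe 1029, for AT5G13810 and AT5G58530, fell by 1.48 ± 0.16 (limma adjusted p = 6.88e-06). That probe was dim, with 4 light values at the floor. Probe 838 differed by -1.76, while probe 790, with its candidates AT5G62910 and AT3G48070 and without AT1G74870, rose by 0.73 ± 0.16 (limma adjusted p = 0.00153). For AT5G56070 the several-gene probe 725, with AT5G56050 and AT4G26490, was 1.28 higher and the one-gene probe 2821 fell by 0.85 ± 0.17 (limma adjusted p = 0.00102).

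The 2 same-direction cases were families described above. For the GH9B genes, probe 2890, which names GH9B18, GH9B17 and AT3G42155, fell by 1.34 ± 0.16 (limma adjusted p = 1.82e-05), beside -1.47 for probe 3160. GH9B16 by its own probe 3148 fell by 0.51 ± 0.08 (limma adjusted p = 0.000102), though as deposited, without scaling, the difference was -0.04 with an adjusted p of 0.69. For histone 3.3, probe 2392, which adds AT4G40040 to the pair, read 1.51, 1.57 and 1.97 in the dark and 0.725, 0.945 and 1.23 in light and fell by 0.84 ± 0.14 (limma adjusted p = 0.000214), beside -1.20 for probe 3127. Probes 2890, 3148 and 2392 had light medians below their dark medians. Probes 3160 and 3127 did too, but the rule chose them for their fall, so they add nothing to this.

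Other partners were less settled. For RCA and AT1G73110, probe 1872 with the same candidates as probe 665 fell by 0.86 ± 0.17 (limma adjusted p = 0.00106), but it lay below the level condition with all 6 light values at the floor, and with a floor at the 10th percentile its adjusted p was 0.065. For the thioesterases, FATB by its own probe 1421 fell by 0.49 ± 0.16 (limma adjusted p = 0.0220) and probe 3455 for AT4G13050 and FaTA rose by 0.49 ± 0.16 (limma adjusted p = 0.0181), beside -1.17 for the 3 together. Neither call held with consecutive replicate numbers averaged, where the adjusted p was 0.062 and 0.14. As deposited, without scaling, probe 1421 differed by only -0.05 (limma adjusted p = 0.795). For PHOS32 and PHOS34, probe 902, which adds AT1G11360, fell by 0.66 ± 0.14 (limma adjusted p = 0.00187), with an adjusted p of 0.053 under the same averaging and 0.26 as deposited.

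Among probes with exactly the same candidates, the largest fall of the set, probe 3431 at -2.49, stood beside probe 4384 at 0.13 ± 0.33 (limma adjusted p = 0.759). The UBC19 and UBC20 probe 1033 at 1.33 stood beside probe 1294 at 0.05 ± 0.09 (limma adjusted p = 0.682). Probe 3179 at -1.65 stood beside probe 1432 for the same genes, AT4G20840 and AT4G20830, which rose by 0.45 ± 0.11 (limma adjusted p = 0.00477, and 0.054 with consecutive numbers averaged). Thus 2 probes with 1 set of names gave different readings in each of these cases.

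The same was seen over the whole array. Among the 870 several-gene probes there were 93 pairs with identical candidates, picked by annotation alone. Across these pairs the correlation of the log2 differences was 0.004 and that of the mean levels 0.079, and the sign of the difference was shared in 45 of 93. In the 45 pairs with both probes above the level condition the correlation of differences was 0.026 and of levels 0.24, with the sign shared in 24. No pair had both probes in the set and 17 had 1, and in those 17 the second probe differed by -0.86 to 0.45. In 11 of the 17 the second probe lay above the level condition. There a difference of 1 or more would have placed it in the set, so that range is largely fixed by the rule. All these values come from the same 12 samples. With no probe sequences at hand, it was not tested whether the annotation fits the probes, and every gene name given here is subject to that limit.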

How the data were processed

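The deposited table holds 1 intensity per probe and sample on a linear scale. For the authors' scanner, background correction and scaling, the sources used here give nothing. All 12 columns were used.

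The 12 columns were quantile-normalized, values below the 5th percentile of a column's positive values were raised to it, and the logarithm to base 2 followed. The light and dark groups were compared with limma 3.58.1 (lmFit, eBayes) under R 4.3.3 on all 3439 probes, with 6 samples per group and Benjamini-Hochberg adjustment over all probes. Calls have an adjusted p under 0.05. The other tables were made in Python 3.11.15. The fit was tested on simulated data with samples drawn independently. The correlations between samples given below were not part of that simulation, so it cannot gauge the error rate of the fit here. Arrays carry no depth, and precision is limited by the sample number.

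Candidate genes come from the platform annotation, which names 1 gene for 692 probes, several for 870 and none for 1877. They were matched to the TAIR10.1 gene table, used for names, chromosomes and gene order only, in which 2 of 268 candidates were not found. The table describes few genes, so the lists based on words in descriptions reached few probes. Gene coordinates served only for chromosome and gene order. No sequences were used, so classes based on protein identity were not made.

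The probes named are the 12 largest rises and falls, the 2 nearest the threshold on each side, those with a candidate in a gene list, and up to 10 that share a candidate with another probe. Probes with a named candidate, the other probes described for a shared candidate, the probes that limma did not call, probe 1803 and probe 3249 were added after their values were seen. The probes and the gene lists were chosen with earlier results of these data known.

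The deviations of equally numbered dark and light samples from their group means correlated at 0.41 to 0.65, above the 0.1 set as criterion, so the numbers are taken to pair the samples. What a number stands for is in no label. Consecutive numbers within a group also correlated, at 0.36 to 0.60. Unless another setting is named, SEs and adjusted p-values come from a fit that used neither structure and took the samples as independent. That fit called 52.5% of all probes. The share was 60.2% with the number as a block, 40.0% with the pair of consecutive numbers as a random block and 34.9% with consecutive numbers averaged.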

Additional observations from a re-analysis of the deposited data

Results flagged for a closer look

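In 106 groups of 6 samples, those of the 53 named probes, the highest or lowest value was compared with its nearest neighbour by Dixon's ratio, which chance exceeds in about 1 of 20 groups. It was exceeded in 6. The values are normalized log2 intensities.

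Probe 2426 (AT1G01910, AT5G60730, AT3G10350) read 3.64 in light sample 2, where the other 5 light samples read 4.45 to 4.74. Probe 4444 (PHOS32, PHOS34) read 2.18 in light sample 4 against 2.24 to 2.27. Both samples stayed far above the dark ones. Probe 474 (AT5G48370, AT2G30720), just below the threshold, read -2.64 in dark sample 6 against -1.79 to -1.34. Probe 3324 (UNG, AT2G10550) read -2.56 in dark sample 3 against -1.83 to -1.51. Probe 2746 (AT1G66430, AT5G51830) read 3.70 in light sample 4 against -0.09 to 0.23, and probe 3065 (AT4G00270, AT2G25650) read -1.09 in light sample 2 against 0.13 to 0.76.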

How the results depend on the processing

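None of the 53 probes named for their own difference changed sign under other scalings, floors or left-out samples, and 845 of their 901 differences moved by less than 1 SD. They were picked at or near a 2-fold difference or beyond it, which leaves little room for a change of sign. Of the 54 probes with a shared candidate, 21 changed sign in at least 1 setting, among them probe 4384 (-0.15 without dark replicate 2) and probe 1294 (-0.04 centred). Counts in the main setting were 80 probes higher and 36 lower by the full rule, 215 and 234 several-gene probes called higher and lower by limma, and 9 and 17 of the 54 probes with a shared candidate. As deposited they were 160 and 13, 455 and 98, and 22 and 4. Arrays centred on their medians gave 59 lower. Probes above the median level gave 139 and 125 calls, with 7 lower among the 54. Consecutive numbers averaged (3 against 3) gave 132 and 151 calls, with 2 and 10 among the 54. The pair as a random block gave 155 and 172 calls, with 4 and 10 among the 54. The cause of these shifts was not tested. With the replicate number as a block, the pairing gave 260 and 260 calls, and 11 and 19 among the 54. It called all 116 probes of the set, against 60.2% of all probes. Averaged numbers called 103 of the 116, against 34.9% of all probes. Nothing is read from these counts over the set, because the same contrast chose its probes. Without 1 sample, the counts ranged over 74 to 85 higher, 31 to 39 lower, 199 to 219 and 215 to 235 calls, and 8 to 9 and 15 to 18 among the 54. Dim probes limit the comparison, since values at the floor have no order. The classes based on protein identity were not run.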
